A study of Mus musculus with 12 samples.

Results

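The integrated stress response genes examined here are 10 genes of the ATF4 and CHOP branch: Eif2ak3, Atf4, Ddit3, Ppp1r15a, Chac1, Trib3, Asns, Sesn2, Ddit4 and Nupr1. They were chosen by name from the 46095 genes of the count table, and all 10 had enough counts to be tested. RNA came from 12 whole pancreas samples of mice at postnatal day 56, 6 C57BL/6J wild type (WT 1 to 6) and 6 Axl-/-Mertk-/- (AMKO 1 to 6). Every mouse, of either genotype, had been given 10 hourly intraperitoneal doses of 100 µg/kg caerulein, a peptide related to cholecystokinin whose excess provokes acute pancreatitis through the acinar cell, and the tissue was taken 12 h after the first dose. No untreated pancreas was analysed here, so each comparison is between genotypes within pancreatitis. No source used here names the strain on which the AMKO alleles are kept, and a difference of background cannot be told apart from loss of the receptors.

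The integrated stress response is a translational control pathway. Kinases that sense unfolded protein in the endoplasmic reticulum, amino acid shortage, haem shortage or double-stranded RNA phosphorylate the initiation factor eIF2, which lowers general translation while the mRNA of the transcription factor ATF4 is translated more. ATF4, with partners such as CHOP (encoded by Ddit3), activates genes for amino acid supply, redox balance and the phosphatase subunit that reverses the signal. Acinar cells secrete more protein than most cells and carry a large endoplasmic reticulum, and the kinase PERK is known to be needed for the exocrine pancreas. ATF4 is controlled largely through translation, which mRNA counts do not show.

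Total counts per library ran from 10668637 to 15184371. Axl, the targeted gene used as a check of the labels, fell from 58.9 ± 12.3 CPM (wild type) to 9.09 ± 2.20 CPM (AMKO; SD, n = 6 each), with every AMKO library below every wild type library. Mertk counts were not called (-0.03 on the log2 scale, SE 0.30, edgeR adjusted p = 0.968), and as the sources used here do not say which exons are deleted, a count over the whole gene does not check that allele. CPM are counts per megacount, with library sizes adjusted for composition, and all group values below are mean ± SD over 6 libraries. Pancreas was the labelled tissue, and 10 of 11 acinar markers had enough counts to be tested, with sums of 187857 to 285936 CPM (wild type) and 167249 to 318895 CPM (AMKO), while Prss2 was listed at 0 throughout. Summed transcripts of a liver list (Alb, Apoa1, Apoa2, Apob, Serpina1a, Ttr and Fgb) were 2.71 to 11.9 CPM in WT 1 to 3. The other 9 libraries had 22.4 to 54.1 CPM, and the origin of these transcripts was not tested. Summed neutrophil markers were 67.9 to 84.1 CPM in WT 3, WT 6, AMKO 3 and AMKO 6 and 219 to 748 CPM in the other 8, so results are also given without these libraries. By Xist and Ddx3y, WT 3 and WT 6 read as male and AMKO 3 and AMKO 6 as female. Without them, WT 1 (male) and WT 2, 4 and 5 (female) are set against AMKO 1 (female) and AMKO 2, 4 and 5 (male). Genotype is therefore partly mixed with sex in that setting, whereas the sexes are balanced with all 12 libraries.

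Of the 10 members, 3 were higher and 1 was lower in AMKO at an adjusted p under 0.05 in edgeR's quasi-likelihood test, adjusted over all 13743 genes tested. Across all those genes 5.78% passed the test, 2.41% higher and 3.37% lower. Atf4, Ppp1r15a and Chac1 rose, by 1.49-fold, 1.95-fold and 2.07-fold, whereas Ddit4 fell to 0.647 of its wild type level. Trib3, Sesn2, Asns, Nupr1 and Eif2ak3 had fitted values above 0 and Ddit3 below 0, and none of these 6 passed the test. The median log2 fold change (AMKO minus wild type) of the members was 0.35, against -0.002 over all genes tested. In 2 members, Chac1 and Ppp1r15a, every AMKO library lay above every wild type library, an arrangement that 1.24% of all tested genes shared (3.54% with either genotype above).

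**Figure D1:**
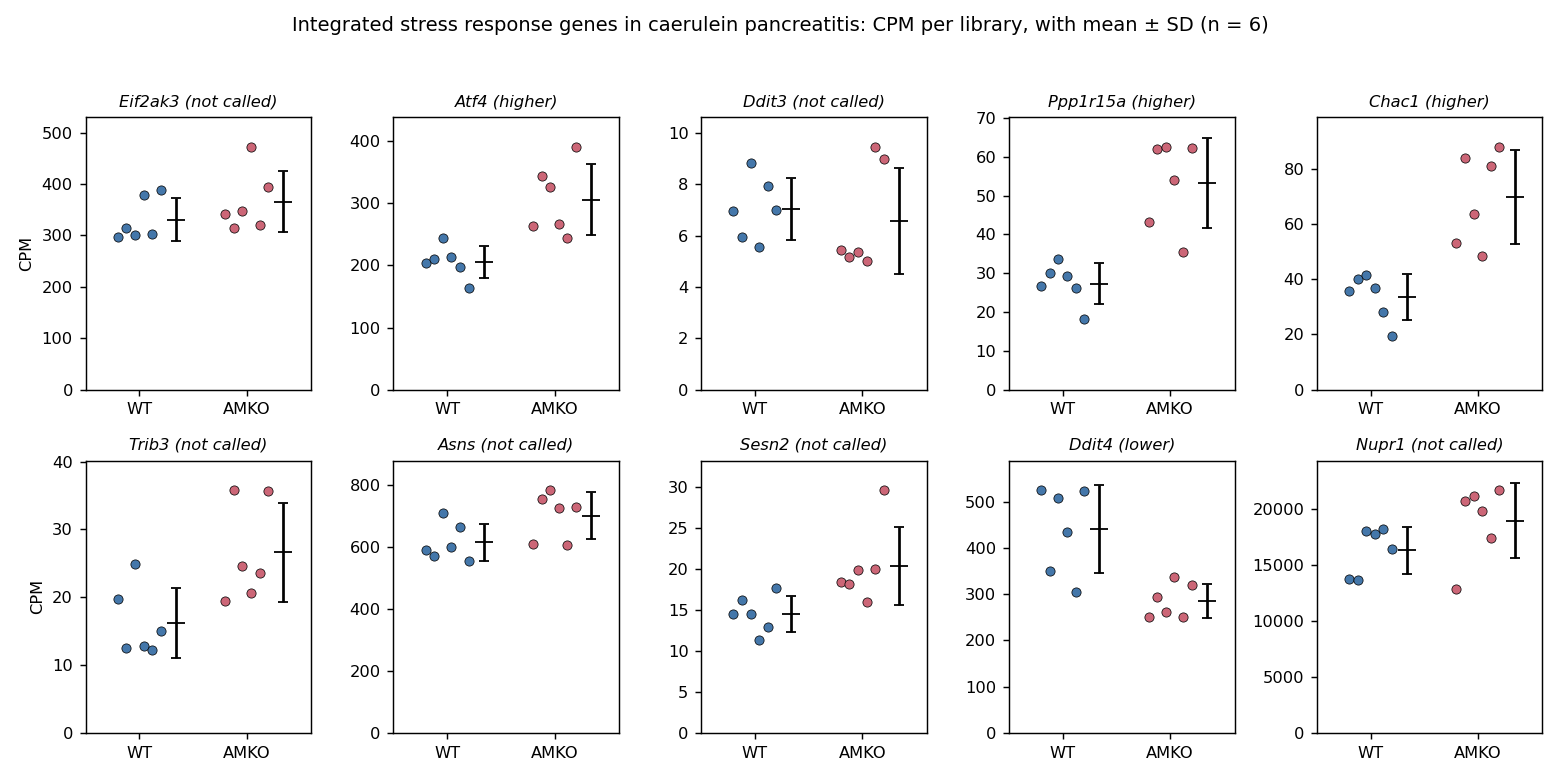
Each panel plots CPM (linear axis from 0) of one gene in the 6 wild type (blue) and 6 AMKO (red) libraries, with the mean ± SD beside the points and the test result in the panel title. Chac1 and Ppp1r15a separate the genotypes completely, Atf4 nearly so, and Ddit4 is the member called lower in AMKO.

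Eif2ak3 encodes PERK, the kinase of the endoplasmic reticulum membrane that phosphorylates eIF2 when unfolded protein accumulates. It lies on chromosome 6 (70844515 to 70905245, GRCm38). Wild type libraries ranged from 297 to 389 CPM (median 309) and AMKO libraries from 314 to 473 CPM (median 345). The ranges overlapped over most of their length, with AMKO 4 the highest of all 12. Its log2 fold change of 0.15 (SE 0.11, edgeR adjusted p = 0.484) was within the spread between libraries.

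Atf4, the transcription factor at the centre of the pathway, is a gene on chromosome 15 (80255184 to 80257541). Means were 206 ± 26.2 CPM (wild type) and 306 ± 56.9 CPM (AMKO). Wild type libraries spanned 164 to 245 CPM (median 207) and AMKO libraries 245 to 391 CPM (median 296). The groups met at a single point, where AMKO 5, the lowest of its group, and WT 3, the highest of its group, were level, while the other 5 AMKO libraries exceeded all wild type libraries. For Atf4 the fitted log2 fold change came to 0.57 (SE 0.12, edgeR adjusted p = 0.0159). The call held in each of the 12 fits that left out 1 library (adjusted p up to 0.0440). It was lost against WT 4 to 6 alone (0.69, adjusted p = 0.0702), with WT 1 to 3 (0.47, adjusted p = 0.167) and without the 4 libraries low in neutrophil markers (0.44, adjusted p = 0.127).

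Ddit3, which encodes CHOP, the partner of ATF4 linked to cell death after prolonged stress, did not follow Atf4. The gene sits on chromosome 10 (127290774 to 127296288). It was among the least abundant members, with 74 to 113 counts in wild type libraries and 59 to 129 in AMKO libraries. In CPM, wild type ran from 5.54 to 8.80 (median 6.97) and AMKO from 5.01 to 9.46 (median 5.39). AMKO 1, 2, 3 and 4 lay below every wild type library and AMKO 5 and 6 above every one, so the AMKO group held both the lowest and the highest values. For Ddit3 the log2 fold change was -0.10 (SE 0.20, edgeR adjusted p = 0.807), and no difference between genotypes was called. An exon of Ddit3 overlaps an exon of Mars, on the opposite strand, and no source here states whether counting used strand, so these counts are uncertain. A low value in this table also need not mean low expression, since Gapdh, a housekeeping gene chosen after its values were seen, had only 150 to 318 counts.

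Ppp1r15a encodes GADD34, the stress-induced subunit that directs protein phosphatase 1 to eIF2 and so ends the signal. It lies on chromosome 7 (45522916 to 45526268), 19.7 Mb from Axl, and shares a few bases of exon with Tulp2 on the other strand. Wild type libraries ran from 18.3 to 33.8 CPM (median 27.9) and AMKO libraries from 35.3 to 62.6 CPM (median 58.0). Even AMKO 5, the lowest of its group, was above WT 3, the highest wild type library. Means were 27.3 ± 5.21 and 53.2 ± 11.5 CPM, or 0.96 as log2 fold change (SE 0.16, edgeR adjusted p = 0.00442). The call held without any 1 library (adjusted p at most 0.0143) and with WT 4 to 6 as comparison (1.14, adjusted p = 0.0298). With WT 1 to 3 as comparison it was missed (0.82, adjusted p = 0.0608) and without the 4 libraries low in neutrophil markers (0.80, adjusted p = 0.0547). The constitutive counterpart Ppp1r15b, named after its values were seen, showed 0.08 (SE 0.07, edgeR adjusted p = 0.545) on the same scale.

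Chac1, a glutathione-degrading gamma-glutamylcyclotransferase and a standard readout of ATF4 activity, showed the largest fold difference of the members. Wild type libraries ran from 19.5 to 41.5 CPM (median 36.3) and AMKO libraries from 48.2 to 87.9 CPM (median 72.2). The lowest AMKO library, AMKO 4, exceeded the highest wild type library, WT 3, and WT 6 was the lowest of all 12. Means were 33.6 ± 8.35 and 69.6 ± 16.9 CPM, with a log2 fold change of 1.05 (SE 0.19, edgeR adjusted p = 0.00682). No omission of 1 library removed the call (highest adjusted p 0.0196), nor did the use of WT 4 to 6 alone (1.32, adjusted p = 0.0279). Against WT 1 to 3 alone the log2 fold change was 0.83 (adjusted p = 0.0657), and without the 4 libraries low in neutrophil markers it was 0.92 (adjusted p = 0.0553). Chac1 lies on chromosome 2 (119351229 to 119354381), 9.34 Mb from Mertk, one of the targeted genes. Of 178 tested genes within 10 Mb of Mertk, 21.3% were called, against 5.78% over all genes, and the part of this neighbourhood in the Chac1 difference was not tested. Within 10 Mb of Axl, 1.89% of 264 tested genes were called, a window that does not reach Ppp1r15a.

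Trib3, a pseudokinase induced by ATF4 and CHOP that feeds back on ATF4, lies on the same chromosome (152337422 to 152344032), 23.5 Mb from Mertk. It ran from 12.2 to 24.9 CPM in wild type (median 13.9) and from 19.5 to 35.8 CPM in AMKO (median 24.1). WT 3 and WT 1 reached into the AMKO range, while the other 4 wild type libraries lay below every AMKO library. The log2 fold change of 0.71 (SE 0.21) did not pass (edgeR adjusted p = 0.0604). It did pass without WT 3 (0.87, adjusted p = 0.0237), without AMKO 1 (0.80, adjusted p = 0.0362) and with a term for sex (0.74, adjusted p = 0.0436). By DESeq2 (0.72, adjusted p = 0.0134) and limma voom (0.76, adjusted p = 0.0250) it passed as well, and in the other 20 settings it did not.

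Asns, asparagine synthetase, is an amino acid response gene on chromosome 6 (7675169 to 7693254). Its mean was 616 ± 60.0 CPM (wild type, median 596) and 702 ± 75.8 CPM (AMKO, median 727, highest 785). AMKO 1 and AMKO 5, the lowest of their group at 611 and 606 CPM, fell inside the wild type range of 556 to 712 CPM, and the other 4 AMKO libraries lay above it. That gave a log2 fold change of 0.19 (SE 0.09, edgeR adjusted p = 0.249).

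Sesn2 encodes sestrin 2, a leucine sensor that restrains mTORC1, and lies on chromosome 4 (132492032 to 132510501). Wild type libraries ran from 11.3 to 17.6 CPM (median 14.5) and AMKO libraries from 16.0 to 29.6 CPM (median 19.1). All AMKO libraries but AMKO 4 were above every wild type library, and AMKO 6 stood well above the rest. The log2 fold change was 0.48 (SE 0.15, edgeR adjusted p = 0.0698).

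Ddit4 encodes REDD1, another brake on mTORC1, which ATF4, hypoxia and glucocorticoids can each induce. It was the member that moved against Atf4. The gene lies on chromosome 10 (59949669 to 59951834). Wild type libraries ran from 305 to 526 CPM (median 471) and AMKO libraries from 250 to 336 CPM (median 278). WT 5 lay inside the AMKO range, and the other 5 wild type libraries lay above it. Means were 441 ± 95.2 and 285 ± 36.8 CPM, or -0.63 as log2 fold change (SE 0.14, edgeR adjusted p = 0.0188). The call rested on WT 1 (adjusted p = 0.0505 without it) and AMKO 3 (0.0515 without it). It was kept against WT 1 to 3 alone (-0.69, adjusted p = 0.0463) and lost against WT 4 to 6 alone (-0.55, adjusted p = 0.143) and without the 4 libraries low in neutrophil markers (-0.51, adjusted p = 0.226).

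Nupr1, a small chromatin-associated stress protein first described as induced in acute pancreatitis, was the most abundant member by far. It is on chromosome 7 (126623249 to 126630861) and took 1.47% to 1.83% of all counts in wild type libraries and 1.503% to 2.02% in AMKO libraries. In CPM, wild type ran from 13674 to 18205 (median 17056) and AMKO from 12858 to 21695 (median 20281). AMKO 1 was the lowest of all 12 libraries, while AMKO 2, 3, 4 and 6 were above every wild type library. The log2 fold change was 0.22 (SE 0.14, edgeR adjusted p = 0.373).

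**Figure D2:**
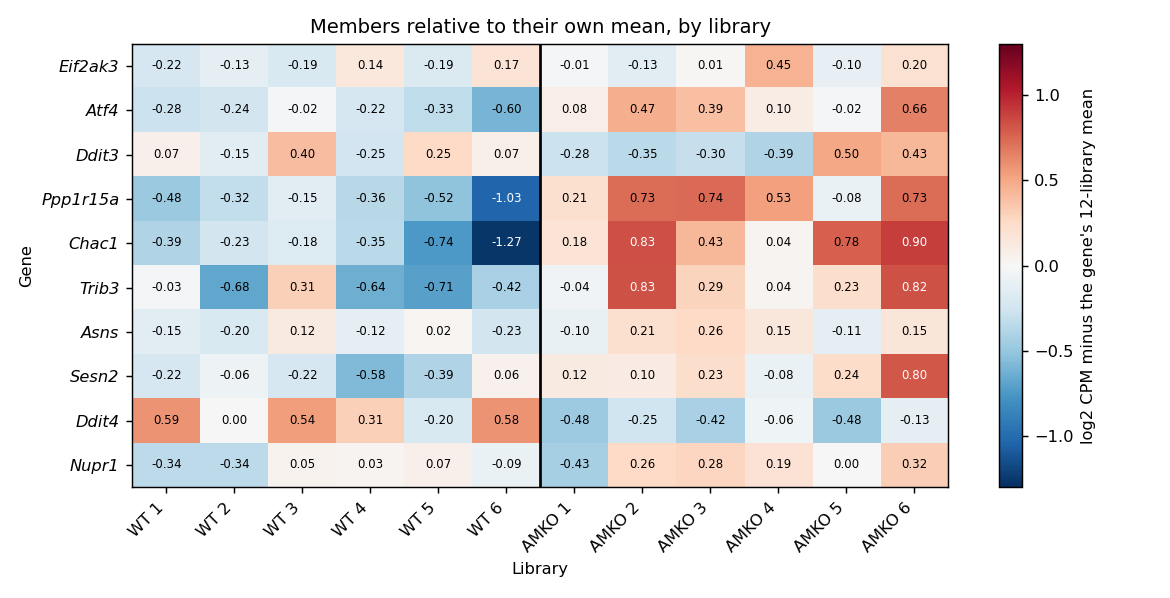
Rows are the 10 members and columns the 12 libraries, and each cell gives log2 CPM (2 counts added before the log) minus the gene's mean over the 12 libraries, red above and blue below that mean. AMKO 6 is above the mean for 9 of the 10 genes and WT 2 below it for 9, Atf4, Ppp1r15a and Chac1 form a shared block, and Ddit4 is coloured the opposite way.

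The libraries differed within each genotype in how many members were raised. AMKO 6 was above the 12-library mean for 9 members, AMKO 3 for 8, AMKO 2 and AMKO 4 for 7 each, AMKO 5 for 5 and AMKO 1 for 4. In wild type the count went from 1 member in WT 2 to 5 in WT 3. AMKO 6 also had the highest summed acinar markers (318895 CPM) and AMKO 1 the lowest (167249 CPM), and AMKO 6 had the highest islet sum (1948 CPM). Summed B cell markers were 198 CPM in AMKO 1 and 77.8 CPM in AMKO 5, against 2.12 to 4.45 CPM in the other AMKO libraries. AMKO 1 and AMKO 5 also had the highest fibroblast and adipocyte sums of their group. What part acinar content or other cell makeup had in these values was not tested. In whole tissue, fewer cells of a type and less RNA per cell cannot be told apart. The 10 tested acinar markers had a median log2 fold change of 0.08, and 2 were called higher in AMKO, the acinar transcription factors Ptf1a (log2 fold change 1.21, SE 0.26, adjusted p = 0.0145) and Bhlha15 (0.86, SE 0.14, adjusted p = 0.00320). Of 8 duct markers, 3 were called lower, with sums of 2144 to 2804 CPM in wild type and 1642 to 2369 CPM in AMKO. None of 8 tested neutrophil markers was called in edgeR (0 at an unadjusted p under 0.05, and 0 by DESeq2 and by limma voom), while 1 of 10 macrophage markers was (Mrc1, higher in AMKO). Summed macrophage markers were 340 to 853 CPM in wild type (median 725) and 492 to 1529 CPM in AMKO (median 784). The highest AMKO sums were those of AMKO 5 (1529 CPM) and AMKO 1 (1328 CPM), and the next was AMKO 2 (875 CPM).

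For an order of levels, CPM were divided by the length of each member's annotated exons, which does not correct for reads lost or shared in counting. In wild type, Nupr1 led with 6477 ± 836 CPM per kb, followed by Ddit4 (251 ± 54.2) and Asns (225 ± 21.9), whose ranges overlapped. Atf4 stood at 87.2 ± 11.1 and Eif2ak3 at 54.9 ± 6.95 CPM per kb, and their wild type ranges did not overlap. Chac1 followed at 20.5 ± 5.10, then Ppp1r15a (9.31 ± 1.77) and Trib3 (7.63 ± 2.41), which overlapped. Sesn2 (4.17 ± 0.648) and Ddit3 (4.10 ± 0.708) closed the order and overlapped, and the place of Ddit3 is as uncertain as its counts. In AMKO, Asns at 257 ± 27.7 CPM per kb lay above Ddit4 at 163 ± 21.0 in every library. In wild type the order of these 2 genes was not settled, as their ranges overlapped.

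Promoters of the members were searched for 4 short elements tied to the pathway, because several ATF4 targets are known to carry such elements; the patterns were chosen with these promoters in view. Sequences are from RefSeq (GRCm38.p6), 250 bases before to 50 after each gene's start, and all 10 members had one. RefSeq's start is not always the end of the GENCODE gene printed above: it was the same base for Atf4, Ppp1r15a and Eif2ak3, lay 13 to 64 bases inside the GENCODE gene for Chac1, Ddit3, Asns, Sesn2 and Ddit4, 5391 bases inside it for Nupr1, and 28 bases outside it for Trib3. Distances below count from RefSeq's start. The C/EBP-ATF response element (CARE) was searched as TGATGNAAN, a related ATF/CRE-like form as TGACGNAAN, the cyclic AMP response element (CRE) as TGACGTCA and the endoplasmic reticulum stress element (ERSE) as CCAAT and CCACG with 9 bases between them, each on both strands. CARE was found in 4 members, the ATF/CRE-like form in 1, CRE in 1 and ERSE in 0 of 10. Of all 32851 mouse promoters in the table, 3.95%, 1.59%, 1.79% and 0.119% held them. No 2 of the matches in the members overlapped. The matches are shown 5′ to 3′ on the gene's strand, with the matched letters in capitals, so that the element can be read in its setting beside the values above. A match is a description of letters and not a measured binding site.
Chac1, CARE on the reverse strand, 194 to 186 bases before the RefSeq start (chr2:119351028-119351076): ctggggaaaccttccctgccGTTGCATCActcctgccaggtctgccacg
Chac1, ATF/CRE-like form, 250 to 242 bases before the RefSeq start (chr2:119350992-119351020): TGACGCAATctgactcgcccttgctgcat
Asns, CARE, 23 to 15 bases before the RefSeq start, within a GENCODE exon (chr6:7693214-7693242): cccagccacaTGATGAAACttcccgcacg
Nupr1, CARE on the reverse strand, 111 to 103 bases before the RefSeq start, within a GENCODE exon (chr7:126625563-126625591): aaagggccagATTGCATCAgacagggctt
Trib3, CARE on the reverse strand, at bases 14 to 22 after the RefSeq start, which is upstream of the GENCODE gene (chr2:152344029-152344057): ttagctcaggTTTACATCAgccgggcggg
Ppp1r15a, CRE, 12 to 5 bases before the RefSeq start (chr7:45526269-45526300): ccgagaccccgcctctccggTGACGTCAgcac

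Of the 3 members that rose, Chac1 and Ppp1r15a held a match and Atf4 did not. Among the 6 that did not pass the test, Asns, Nupr1 and Trib3 held a CARE match. Ddit4, the member that fell, held none of the 4 patterns in these 300 bases, which says only that these letters are not in this window.

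The rest of the pathway was read from 10 lists drawn from textbook knowledge, though with earlier results of these data known. They hold 97 other genes, 96 of them tested. Because of that choice, the shares below describe these lists and are no independent test of the pathway. Of these 96, 17 were higher and 4 lower in AMKO, or 21.9%, against 5.78% over all genes tested. Fitted values were above 0 for 67 and below 0 for 29, with a median log2 fold change of 0.14 against -0.002 over all genes.

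**Figure D3:**
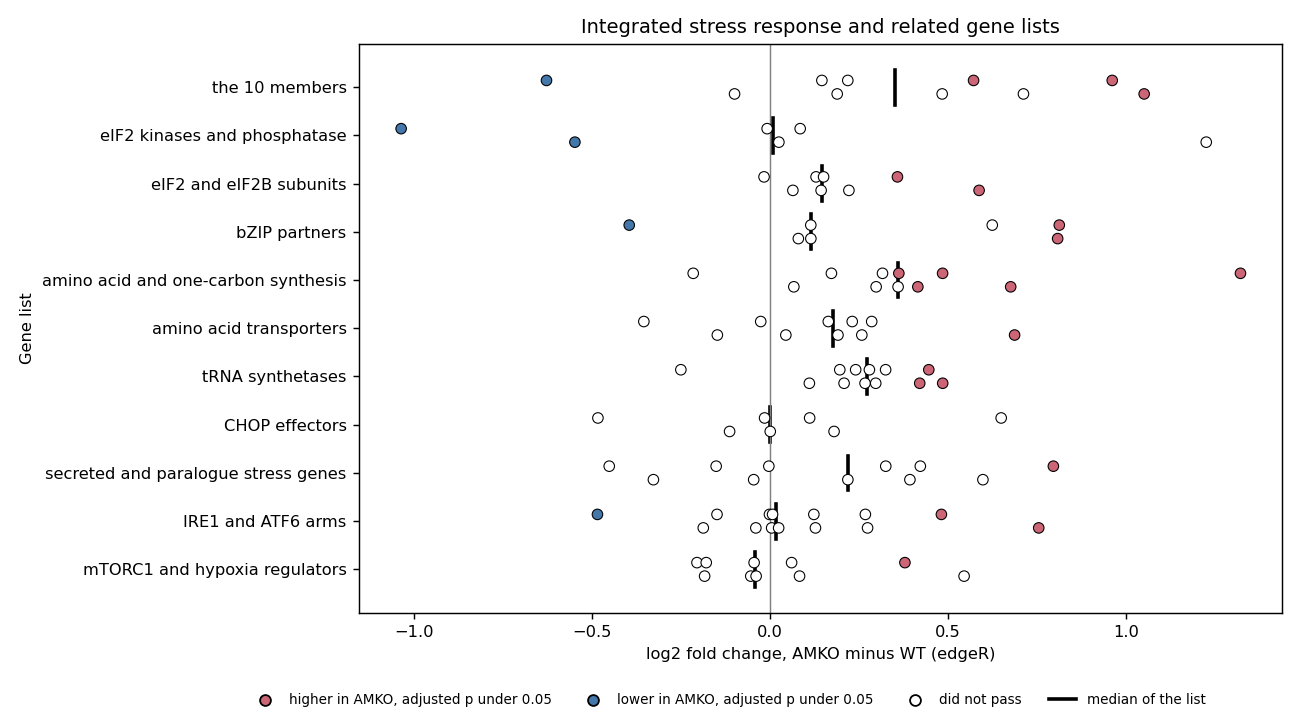
Each point is a tested gene, placed by its log2 fold change (AMKO minus wild type) in the row of its list, filled red or blue where it was called higher or lower, and the black bar is the list's median. Amino acid synthesis holds the most genes called higher (5), followed by tRNA synthetases and the 10 members (3 each). The CHOP list holds none, and the 2 called genes among kinases and phosphatase parts are both lower.

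The list of kinases and phosphatase parts also holds Dnajc3, which is neither. Of its 6 tested genes, 2 fell and 0 rose (median 0.01), and both that fell are kinases. Eif2ak4 encodes GCN2, the sensor of uncharged tRNA, and went from 27.9 ± 1.72 to 19.1 ± 1.43 CPM (log2 fold change -0.55, SE 0.08, edgeR adjusted p = 0.00132), with no overlap between genotypes. Eif2ak4 lies 10.2 Mb from Mertk, and the part of that neighbourhood was not tested. Eif2ak2, which encodes the double-stranded RNA sensor PKR and is also an interferon-induced gene, went from 83.5 ± 16.8 to 40.6 ± 9.37 CPM (-1.04, SE 0.16, adjusted p = 0.00217), again with no overlap. Exons of Eif2ak2 share 174 bases with Gm26637 on the other strand, so its counts are uncertain. Of all tested genes, 2.30% had every AMKO library below every wild type library. The Eif2ak4 call was missed without the 4 libraries low in neutrophil markers (-0.50, adjusted p = 0.0547), whereas Eif2ak2 kept its call under each of the 25 other settings run.

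Subunits of eIF2 and of its exchange factor eIF2B numbered 8, of which 2 rose and 0 fell (median 0.15). Eif2b3 rose from 22.6 ± 2.27 to 34.03 ± 4.66 CPM (0.59, SE 0.10, edgeR adjusted p = 0.00488), every AMKO library being above every wild type library. Its call was missed against WT 1 to 3 alone (adjusted p = 0.0817) and without the 4 libraries low in neutrophil markers (0.111). Eif2b4 rose from 27.2 ± 2.65 to 34.9 ± 4.26 CPM (0.36, SE 0.10, adjusted p = 0.0434), a call that held in only 3 of the 12 leave-one-out fits (highest adjusted p 0.105), those without WT 5, AMKO 1 or AMKO 5. With a term for sex its adjusted p was 0.0522. Upper quartile scaling (0.0547), total counts without a scaling factor (0.0795) and no count filter (0.0617) also ended the call. Exons of Eif2b4 share 204 bases with Snx17 on the other strand, so its counts are uncertain.

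Partners of ATF4 among the bZIP transcription factors numbered 7, of which 2 rose and 1 fell (median 0.11). Atf5, an ATF4 relative that is itself controlled at translation, rose from 231 ± 38.7 to 405 ± 75.7 CPM (0.81, SE 0.14, edgeR adjusted p = 0.00446), though its exons overlap those of Nup62 and Il4i1 on the other strand. Atf5 lies 19 Mb from Axl. Atf3, an early stress factor downstream of ATF4, rose from 47.6 ± 9.91 to 83.5 ± 22.3 CPM (0.81, SE 0.18, adjusted p = 0.0159) with no overlap between groups. Both were missed against WT 1 to 3 alone (adjusted p = 0.0817 and 0.0979), and Atf3 also against WT 4 to 6 alone (0.107) and without the 4 libraries low in neutrophil markers (0.112). Nfe2l2, which encodes the oxidative stress factor NRF2, fell from 71.1 ± 9.27 to 54.0 ± 5.20 CPM (-0.40, SE 0.09, adjusted p = 0.0225). Its call was lost without WT 4 (0.0505), AMKO 2 (0.0533) or AMKO 3 (0.0595), with WT 4 to 6 or WT 1 to 3 as the wild type group (0.0567 and 0.167), and without the 4 libraries low in neutrophil markers (0.0911).

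Enzymes of amino acid and one-carbon synthesis, classical ATF4 targets, held 5 genes that rose and 0 that fell among 11 (median 0.36, 10 of 11 above 0). Cth, cystathionine gamma-lyase, which makes cysteine, showed the largest change of all pathway genes that passed, from 8.00 ± 2.37 to 20.1 ± 4.42 CPM (1.32, SE 0.19, edgeR adjusted p = 0.00145). Its wild type libraries ran from 6.05 to 11.7 CPM and its AMKO libraries from 16.4 to 28.4 CPM, and the call held under each of the 25 other settings. Mthfd2, the mitochondrial folate enzyme, rose from 58.6 ± 10.3 to 81.9 ± 9.09 CPM (0.48, SE 0.11, adjusted p = 0.0240), and Pycr1, of proline synthesis, from 67.7 ± 17.7 to 108 ± 19.6 CPM (0.68, SE 0.16, adjusted p = 0.0251). The Mthfd2 call was lost without WT 2, WT 4, AMKO 3 or AMKO 6 (adjusted p up to 0.0614), and the Pycr1 call without WT 1, WT 2, WT 4, AMKO 2 or AMKO 3 (up to 0.0636). The remaining called genes, named after their values were seen, were Phgdh of serine synthesis (0.41, adjusted p = 0.0303), which has several near-identical pseudogene copies and is uncertain, and Aldh18a1 of proline synthesis (0.36, adjusted p = 0.0470). Omission of 1 library ended these calls in 7 and 9 of the 12 cases (adjusted p up to 0.0770 and 0.111). All 4 of Mthfd2, Pycr1, Phgdh and Aldh18a1 were lost against WT 1 to 3 alone (adjusted p of 0.173, 0.163, 0.120 and 0.379). Without the 4 libraries low in neutrophil markers, Mthfd2 (0.0901), Phgdh (0.240) and Aldh18a1 (0.136) were lost, and against WT 4 to 6 alone Pycr1 (0.0771) and Phgdh (0.218) were. A term for sex ended the Aldh18a1 call (0.0510).

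Of 10 amino acid transporters, 1 rose and 0 fell (median 0.18). Slc3a2, the heavy chain shared by several amino acid exchangers, rose from 226 ± 39.0 to 364 ± 77.6 CPM (0.69, SE 0.14, edgeR adjusted p = 0.0121), with every AMKO library above every wild type library. It was missed against WT 4 to 6 alone (adjusted p = 0.0664) and WT 1 to 3 alone (0.134). The cytosolic aminoacyl-tRNA synthetases, which charge tRNAs with amino acids, had 3 of 12 members that rose and 0 that fell (median 0.27, 11 of 12 above 0). Tars, of threonine, rose from 59.2 ± 4.86 to 80.7 ± 3.03 CPM (0.45, SE 0.06, adjusted p = 0.00152) and Nars, of asparagine, from 255 ± 29.0 to 356 ± 41.0 CPM (0.48, SE 0.09, adjusted p = 0.00932), both with no overlap between genotypes. Aars, of alanine, rose as well (0.42, SE 0.11, adjusted p = 0.0337) but held only without WT 3, AMKO 1, AMKO 4 or AMKO 5 among the leave-one-out fits (adjusted p up to 0.0821). Its exons share 1326 bases with Exosc6 on the same strand, so its counts are uncertain. Without the 4 libraries low in neutrophil markers, Tars and Nars had adjusted p of 0.0649 and 0.0622, and against WT 1 to 3 alone Nars had 0.149.

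Of 7 genes placed downstream of CHOP, edgeR called 0 (median 0.00013), with 1 at an unadjusted p under 0.05, 1 called by DESeq2 and 0 by limma voom. That gene was Bbc3, which encodes the apoptosis inducer PUMA (log2 fold change 0.65, SE 0.21, edgeR adjusted p = 0.0796, named after its values were seen). The most abundant of them, the oxidase Ero1l and the apoptosis inducer Bcl2l11, stood at 77.0 ± 20.6 and 76.2 ± 10.71 CPM, and at 35.6 ± 6.54 and 32.9 ± 4.94 CPM, in wild type and AMKO. Their log2 fold changes were -0.02 (SE 0.15) and -0.11 (SE 0.13), with edgeR adjusted p of 0.966 and 0.657, and both changed sign between settings. Bcl2l11 lies 0.536 Mb from Mertk, and the part of that neighbourhood was not tested. Among secreted stress factors and relatives of the members, 1 of 11 tested rose and 0 fell (median 0.22). This was Trib1, a pseudokinase related to Trib3, from 84.8 ± 21.1 to 147 ± 45.5 CPM (0.80, SE 0.21, adjusted p = 0.0418), a call that held only without WT 2, AMKO 1, AMKO 5 or AMKO 6 among the leave-one-out fits (adjusted p up to 0.100).

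In the other arms of the unfolded protein response, run by IRE1 and ATF6, 2 of 14 genes rose and 1 fell (median 0.02). Herpud1, which works in degradation of endoplasmic reticulum proteins and responds to ATF4 as well as ATF6, rose from 40.9 ± 8.08 to 69.0 ± 8.11 CPM (0.75, SE 0.12, edgeR adjusted p = 0.00380). Dnajb9, a co-chaperone induced by XBP1, rose from 52.7 ± 8.34 to 73.5 ± 7.07 CPM (0.48, SE 0.10, adjusted p = 0.0145), and neither gene overlapped between the genotypes. Sel1l, a scaffold of the same degradation pathway, fell from 148 ± 24.8 to 106 ± 9.33 CPM (-0.49, SE 0.10, adjusted p = 0.0156). Against WT 4 to 6 alone these 3 genes had adjusted p of 0.0635, 0.170 and 0.0568, Sel1l had 0.0999 against WT 1 to 3, and without the 4 libraries low in neutrophil markers 0.0611, 0.191 and 0.111. The main chaperone Hspa5, named after its values were seen, was at 1710.2 ± 504 CPM (wild type) and 1708 ± 372 CPM (AMKO) (adjusted p = 0.997). Among 10 genes tied to mTORC1 and to the control of Ddit4 and the sestrins, 1 rose and 0 fell (median -0.04). This was Rheb, the GTPase that activates mTORC1, from 83.6 ± 9.16 to 109 ± 14.8 CPM (0.38, SE 0.10, adjusted p = 0.0381), a call lost without WT 2, WT 4, WT 6, AMKO 2, AMKO 3, AMKO 4 or AMKO 6 (adjusted p up to 0.0935). The calls of Rheb, Trib1, Aars and Eif2b4 were each lost against WT 4 to 6 alone (adjusted p of 0.119, 0.104, 0.0568 and 0.316), against WT 1 to 3 alone (0.252, 0.271, 0.256 and 0.0834) and without the 4 libraries low in neutrophil markers (0.298, 0.196, 0.0918 and 0.373).

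The genes most like Atf4 over the 12 libraries were sought among 11305 tested genes by the root mean square difference between standardised log2 CPM profiles, in SD units. The closest was another member, Ppp1r15a (0.273), followed by the zinc finger gene Jazf1 (0.328) and by Eif2b3 (0.346). Among the members, Chac1 ranked 34th nearest to Atf4, Trib3 150th and Asns 299th, whereas Ddit3 ranked 6174th and Ddit4 9849th. For Ddit3 the closest were Rpusd3 (0.409), Zfp65 (0.445) and Prss3 (0.500), none of them a member or a pathway gene and none called between the genotypes. The profiles contain the genotype difference, so genes that differ between genotypes in one direction are drawn together by it.

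**Figure D4:**
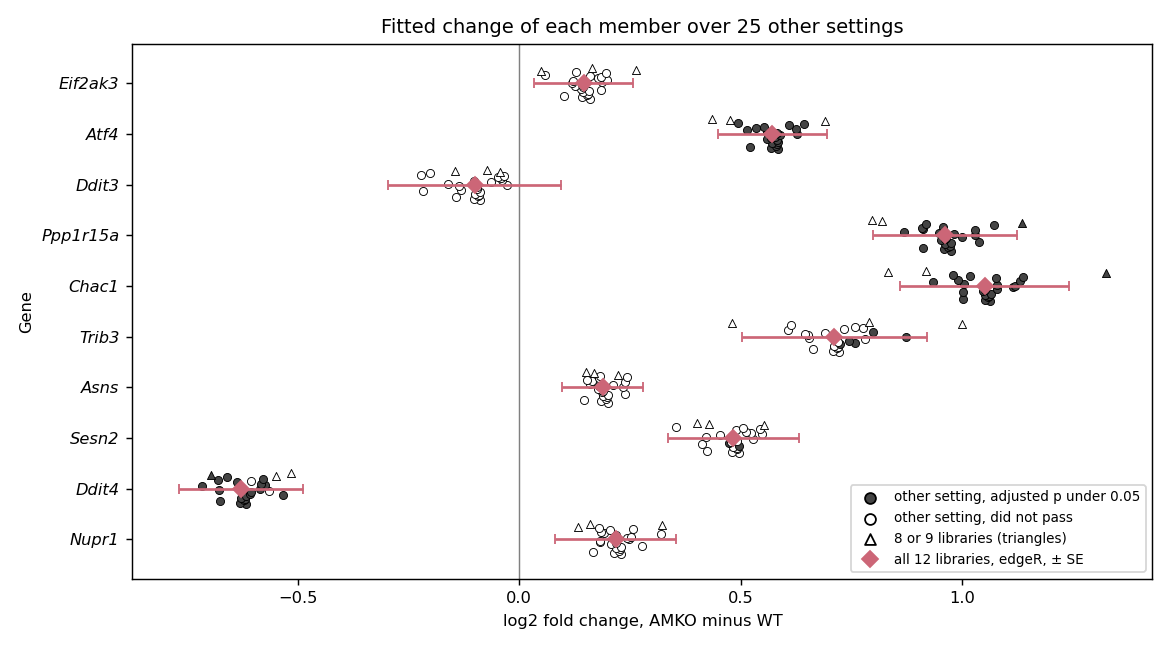
For each member, the red diamond is the log2 fold change (AMKO minus wild type) in all 12 libraries with its SE, and the smaller symbols are 25 other settings, filled where the adjusted p was under 0.05, with triangles for the 3 settings that keep 8 or 9 libraries. All symbols of a member stay on its side of 0, and the Atf4 call is lost in all 3 triangles, those of Ppp1r15a and Chac1 in 2 of them, and that of Ddit4 in 2 of them and in 2 fits without 1 library.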

How the data were processed

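Trizol was used to extract total RNA, per the labels' protocols, and the aligner HISAT2 2.0.4 and the build mm10 are named, per the submitters' processing notes. The counting tool, annotation and strand setting are unstated in these sources. The authors deposited raw counts, whole numbers without scaling, of 46095 genes in 12 columns matched to samples by title. Groups follow the labelled genotype. The labels do not say that each sample came from a separate mouse, so p-values measure the spread between samples. Library pairs of 1 genotype differed beyond sampling noise (chi-square 9.15 to 66.6 times its degrees of freedom).

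The genotypes were compared with edgeR 4.0.16 under R 4.3.3 (quasi-likelihood F test on the counts), with TMM scaling, filterByExpr and genotype as the only term. P-values were adjusted by Benjamini-Hochberg over 13743 genes, with a threshold of 0.05, and the SE was taken from the F statistic. On simulated data 81.6% of 98 genes changed 2-fold and 99% of 96 changed 4-fold were recovered, with 9 false among 184 calls (13581 genes tested). The simulated counts were drawn independently for each library at the fitted trend of dispersion, without differences of sex or cell makeup. These shares therefore need not hold for the real libraries. Alternatives used DESeq2 1.42.0 and limma 3.58.1 voom, other scalings and filters, a replicate block, a term for sex (read from Xist and Ddx3y), and fewer libraries. Positions and exon lengths are from GENCODE M21 (GRCm38). Copies were sought with BLAST at 95% identity over 300 bases.

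Members, lists and library subsets were chosen with earlier results of these data known, and promoter patterns after the members' promoters were seen. Named genes are all members, Axl, up to 3 called genes per list by smallest p (otherwise the 2 most abundant), and the 3 genes most like Atf4 and Ddit3 (mean log2 CPM 1 or more, predicted genes left out).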

Additional observations from a re-analysis of the deposited data

Results flagged for a closer look

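Single libraries stood far from the other 5 of their genotype in 6 of 66 searches (33 genes in 2 genotypes), where chance alone gives about 1 in 20. Each is given as log2 CPM, with the gap to the nearest library as a share of the group's range. Sesn2 in AMKO 6 was 4.90 against 4.01 to 4.33 in the other AMKO libraries (share 0.64). Eif2ak2 in WT 4 was 6.87 against 6.13 to 6.34 in the other wild type libraries (0.713). Eif2b4 in AMKO 1 was 4.75 against 5.10 to 5.26 (0.691), and Nfe2l2 in AMKO 5 was 6.00 against 5.63 to 5.76 (0.647). Tars in AMKO 4 was 6.23 against 6.34 to 6.38 (0.724), and Bcl2l11 in AMKO 6 was 4.55 against 5.03 to 5.22 (0.719).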

How the results depend on the processing

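All 250 member values from 25 other settings kept the direction found with all 12 libraries. Members called numbered 3 to 5 without 1 library, and their median log2 fold change ran from 0.27 to 0.42. Pathway genes called numbered 12 (without WT 4 or AMKO 3) to 26 (without AMKO 5), with 13 without AMKO 2, and all genes called numbered 411 to 1140 (411 without AMKO 3, 421 without AMKO 2, 505 without WT 4, 524 without WT 2). Against WT 4 to 6 alone, 2 members, 9 pathway genes and 167 genes in all were called. Against WT 1 to 3 alone they were 1, 6 and 231. Without WT 3, WT 6, AMKO 3 and AMKO 6, edgeR called 0 members, 5 pathway genes and 98 genes in all, while 6 members had an unadjusted p under 0.05, the same number as with all 12 libraries. These 3 settings keep 8 or 9 libraries, and other tools were not run on them. In the last of them genotype is also partly mixed with sex. With all 12 libraries, total counts without a scaling factor gave 456 genes, DESeq2 1302 and limma voom 1664, and members called were 4, 6 and 5. DESeq2 added Trib3 and Sesn2, voom added Trib3. Total counts without a scaling factor ended the calls of Nfe2l2 (edgeR adjusted p = 0.0673), Aars (0.0602), Trib1 (0.0912), Rheb (0.0617), Aldh18a1 (0.105) and Eif2b4 (0.0795). Without a count filter, the calls of Aldh18a1 (0.066) and Eif2b4 (0.0617) were lost.

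Replicate numbers were not taken as pairs, since same-numbered samples deviated together (correlation of deviations from the group mean over 0.1) for 4 of the 6 numbers and not for the other two (range -0.16 to 0.35), and 2 of the 6 wild type libraries matched their own number best. The libraries low in neutrophil markers carry the numbers 3 and 6 in both genotypes, so pairing is not excluded. By Xist and Ddx3y, the wild type and AMKO samples of every number read as opposite sexes, so each contrast within a number is also one between sexes. With the replicate block, 910 genes, 5 members (Sesn2 added, adjusted p = 0.0229) and 24 pathway genes were called, and Rheb was not (adjusted p = 0.0642).

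Ero1l, at -0.02 with all 12 libraries and never called, was 0.10 with voom, 0.0119 with the replicate block, 0.00892 with a sex term, 0.0634 against WT 1 to 3 alone, 0.23 without the 4 libraries, and -0.0899 to 0.124 without 1 library. Bcl2l11, at -0.11, was 0.0117 against WT 4 to 6 alone and 0.0127 without the 4 libraries. The cause was not tested in either gene.

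Of the 10 members, Ddit3 had the fewest counts, 59 to 129 per library.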
